A study of Mus musculus with 6 samples.

Results

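Genes of DNA replication and mitosis were followed in injured mouse nerve: 48 genes that copy the genome, drive the cell into division and separate the chromosomes. They were chosen by symbol, as the probes of a whole-genome expression array whose annotated gene is one of the 48. Of these, 41 had a named probe, out of 16593 genes measured, and they had 70 probes. They comprised 22 mitotic genes of 27 listed, 17 replication genes of 19 listed, and the G1 cyclin genes Ccnd1 and Ccne1. No named probe was found for Ccnb1, Aurkb, Mki67, Cdkn3, Racgap1, Gins1 and Gins2.

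The sciatic nerve of adult female mice, labelled C57Bl6 (C57BL6/J in the study's methods), was cut at mid-thigh on the left side. RNA was profiled on Illumina MouseRef-8 v2.0 arrays from injured nerve at day 1 and day 5 (distal and proximal segments pooled, as the study's methods describe), from the L4/5 dorsal root ganglia (DRG) of the injured side at day 5, and from spinal cord at day 5. The controls were 1 nerve array and 1 DRG array, sham-operated in the study's words and normal tissue of the right side in the labels, and the spinal cord had no control array. Each of the 6 arrays held 1 pool of RNA from 6 animals, so there was no replicate and no test between conditions. The interval given beside a fold (95%) was computed from bead standard errors, and it covers the error of the signal within an array and not the spread between animals. A signal is the mean brightness of a probe's beads after scaling to a common median, given with its bead standard error, and background was not subtracted, which draws folds of dim genes toward 1. A difference was called when it reached 2-fold in either direction and the gene was detected where it was brighter. The arrays were alike in technical quality, with 50.9 to 54.5% of probes detected, scaling factors of 0.951 to 1.07 and a median bead error of 5.89 to 6.53%. All 5 measured Schwann cell markers were detected on all 6 arrays, the cord included, so their detection does not separate the tissues. All 8 measured sensory neuron markers were detected in both DRG arrays and 5 of them in the cord, with summed signals of 32473 in the day 5 DRG, 36279 in the sham DRG and 7770 in the cord. All 9 spinal cord markers were detected in the cord (sum 40337), and 7 of them also in the day 1 nerve and in the sham DRG (3102 and 3823).

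A dividing cell first licenses its replication origins with the MCM helicase, then copies its DNA with nucleotides made by ribonucleotide reductase and thymidylate synthase, and only afterwards switches on the kinases, motors and spindle proteins of mitosis. Many replication genes are known to be transcribed through E2F factors around the entry into S phase, and many mitotic genes through the CHR element, often beside CCAAT boxes, in G2 and M phase. After a peripheral nerve is cut, Schwann cells in the damaged nerve are known to lose their myelinating state and divide, while sensory neurons in the DRG are postmitotic.

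The promoters of both sets carried these motifs in different shares, described here by letters alone. RefSeq windows of 300 bases (GRCm38.p6), with 250 bases before and 50 bases from the annotated start site on, were matched for 40 of the 48 genes, some of them without a probe, and 4 genes had more than 1 window. The CHR letters (TTTGAA or TTCGAA, either strand) occurred in 18 of 23 mitotic genes (78.3%) and in 3 of 16 replication genes (18.8%), against 21.7% of 27025 genes with a window. The E2F letters (TTCCCGC or TTGGCGC, and likewise TTCGCGC or TTGCCGC, on either strand, where matches may overlap) occurred in 4 of 23 mitotic genes (17.4%) and in 12 of 16 replication genes (75%), against 10.9% of all genes. CCAAT (either strand) was found in 19 of 23 mitotic genes (82.6%) and in 12 of 16 replication genes (75%), against 41.1% of all. CHR and CCAAT stood together in 17 of 23 mitotic genes (73.9%), against 8.61% of all genes. A match is a description of the letters and says nothing of binding.

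Below are windows of 4 mitotic genes with large differences in nerve or DRG and of 2 replication genes that were past 2-fold on day 1, 5′ to 3′ on the gene's strand. Capitals mark any match to the CHR, E2F or CCAAT letters.
Cdk1, chr10:69352863-69353162, minus strand: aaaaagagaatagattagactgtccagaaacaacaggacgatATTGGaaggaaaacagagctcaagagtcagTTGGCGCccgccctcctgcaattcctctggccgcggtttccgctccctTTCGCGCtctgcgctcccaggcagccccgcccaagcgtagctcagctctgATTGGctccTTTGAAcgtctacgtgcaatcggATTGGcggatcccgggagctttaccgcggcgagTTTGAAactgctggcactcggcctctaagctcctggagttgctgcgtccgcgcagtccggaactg
Top2a, chr11:99024140-99024439, minus strand: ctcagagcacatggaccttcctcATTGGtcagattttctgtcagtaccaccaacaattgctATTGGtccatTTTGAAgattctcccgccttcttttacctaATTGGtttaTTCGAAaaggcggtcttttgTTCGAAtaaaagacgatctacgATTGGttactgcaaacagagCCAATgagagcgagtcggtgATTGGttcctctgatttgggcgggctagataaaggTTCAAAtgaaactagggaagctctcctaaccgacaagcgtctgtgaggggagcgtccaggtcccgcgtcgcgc
Prc1, chr7:80294201-80294500, plus strand: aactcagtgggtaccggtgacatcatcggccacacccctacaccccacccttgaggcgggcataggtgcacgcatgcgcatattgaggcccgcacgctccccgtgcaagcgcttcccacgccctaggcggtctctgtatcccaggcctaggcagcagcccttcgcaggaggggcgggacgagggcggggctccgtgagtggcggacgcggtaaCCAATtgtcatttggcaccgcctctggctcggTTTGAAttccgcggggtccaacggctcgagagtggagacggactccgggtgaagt
Kif22, chr7:127042371-127042670, minus strand: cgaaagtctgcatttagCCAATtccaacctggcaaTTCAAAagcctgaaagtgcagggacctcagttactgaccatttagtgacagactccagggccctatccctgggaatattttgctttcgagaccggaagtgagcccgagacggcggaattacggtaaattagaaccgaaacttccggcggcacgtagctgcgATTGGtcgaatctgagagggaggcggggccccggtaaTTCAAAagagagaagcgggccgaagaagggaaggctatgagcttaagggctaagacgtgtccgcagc
Mcm5, chr8:75109259-75109558, plus strand: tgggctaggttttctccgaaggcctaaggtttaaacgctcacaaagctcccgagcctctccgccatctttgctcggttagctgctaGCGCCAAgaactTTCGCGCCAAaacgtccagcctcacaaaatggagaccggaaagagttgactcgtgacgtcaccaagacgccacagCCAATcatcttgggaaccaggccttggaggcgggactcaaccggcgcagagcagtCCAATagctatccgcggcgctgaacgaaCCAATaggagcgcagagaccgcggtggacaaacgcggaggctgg
Mcm6, chr1:128359656-128359955, minus strand: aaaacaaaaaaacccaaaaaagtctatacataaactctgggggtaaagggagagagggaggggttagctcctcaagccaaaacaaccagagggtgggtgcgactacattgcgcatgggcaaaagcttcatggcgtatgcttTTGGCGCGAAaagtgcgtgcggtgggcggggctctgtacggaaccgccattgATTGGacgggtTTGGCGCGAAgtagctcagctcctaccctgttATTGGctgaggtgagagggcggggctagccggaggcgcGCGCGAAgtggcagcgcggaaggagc

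Counted from the start site, with negative positions before it, the CHR letters of Cdk1 began at -71 and -15, of Kif22 at -215 and -17, of Prc1 at -5, and of Top2a at -179, -140, -120 and -23. Cdk1 also held E2F letters, at -178 and -130. In Mcm5 the E2F letters began at -164, -152 and -149, and in Mcm6 at -109, -106, -46, -43 and 24, with no CHR letters in either window.

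**Figure D1:**
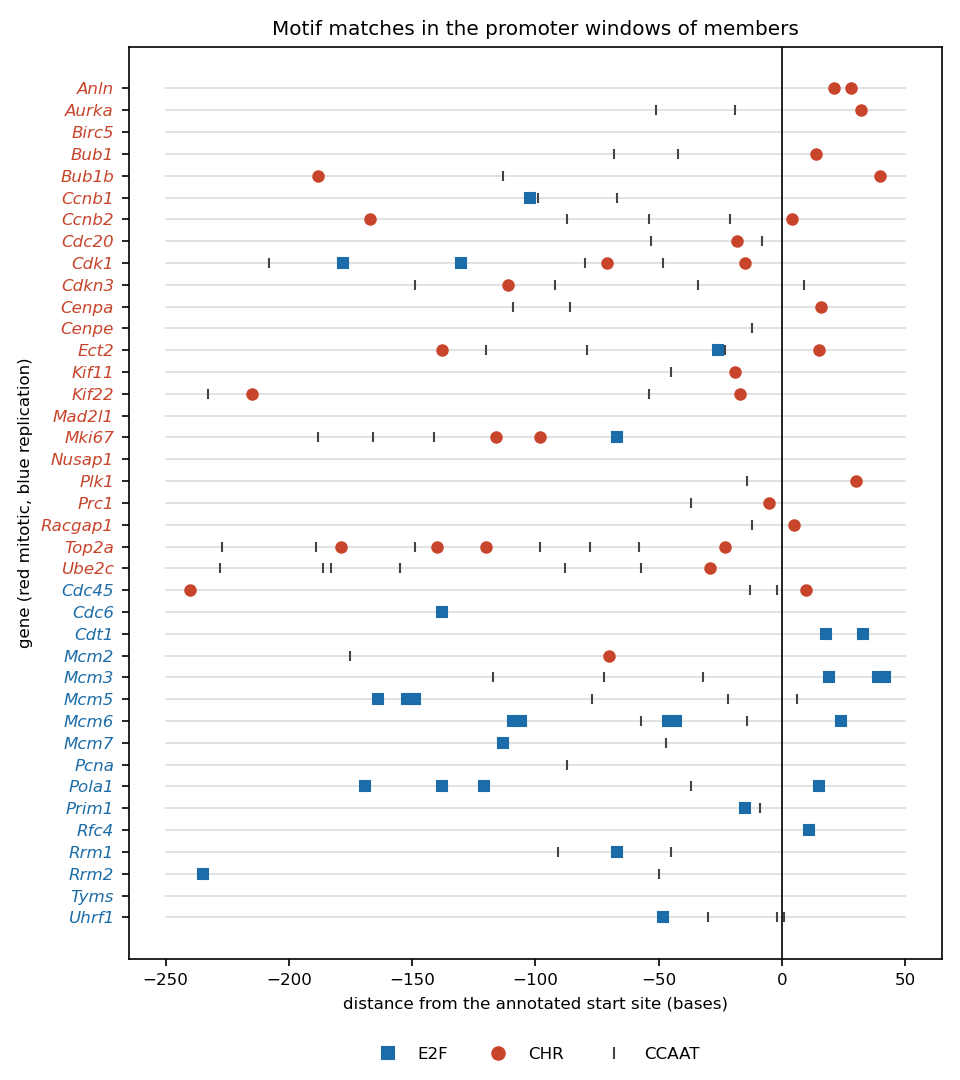
Matches to the E2F (squares), CHR (circles) and CCAAT (vertical ticks) letters in 1 promoter window per gene, by distance from the annotated start site in bases (x axis). Circles fill the mitotic rows at the top (18 of 23 genes) and squares the replication rows under them (12 of 16 genes).

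Across the 6 arrays, 32 of the 41 measured genes were detected in the day 5 nerve, against 28 in the day 1 nerve and 26 in the sham nerve. The corresponding numbers were 27 in the day 5 DRG, 25 in the sham DRG and 25 in the spinal cord. Not detected on any array were 7 mitotic genes (Ccna2, Ccnb2, Bub1, Cenpe, Kif20a, Ube2c and Ect2) and 2 replication genes (Pola1 and Prim1), and for these the arrays give no difference.

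**Figure D2:**
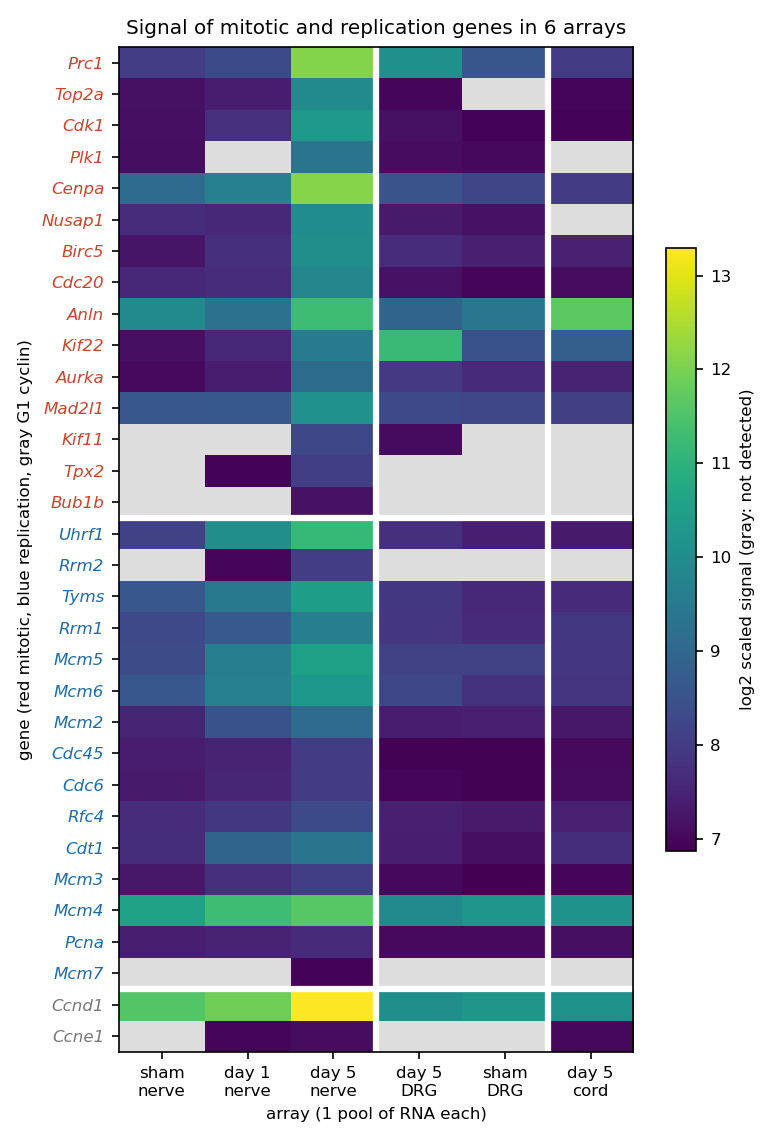
Log2 scaled signal (color) of the 32 genes detected on at least 1 array, with 1 row per gene and 1 column per array, mitotic genes at the top, and gray where a gene was not detected. Within most rows the day 5 nerve is the brightest column, while Kif22 is brightest in the day 5 DRG and Anln in the spinal cord.

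On day 1, 0 of 22 mitotic genes and 4 of 17 replication genes passed 2-fold upward against the sham nerve, and 0 of the 41 genes downward. Over all genes measured on the arrays, 4.03% were called higher and 2.21% lower in this comparison. The 4 replication genes were Uhrf1 (3.82-fold, interval 3.30 to 4.43), Mcm5 (2.39-fold, 2.09 to 2.73), Cdt1 (2.33-fold, 1.96 to 2.76) and Mcm6 (2.07-fold, 1.79 to 2.39). Mcm2 lay just outside the threshold at 1.93-fold, and the intervals of Cdt1, Mcm6 and Mcm2 include 2-fold. The median log2 difference was 0.22 over 13 detected mitotic genes and 0.60 over 14 detected replication genes, against -0.01 over all detected genes. In a list of reference genes, 7 of 8 measured were detected, with a median of 0.50, and Gapdh and Actb were called higher. The replication median was thus little above that of the reference genes, and the mitotic median was below it. Of the replication genes, 11 of 14 lay above the mitotic median, and of the mitotic genes only Cdk1 lay above the replication median.

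On day 5, 14 of 22 mitotic genes and 9 of 17 replication genes were at least 2-fold higher than in the sham nerve, together with Ccnd1, and 0 of the 41 were lower. The shares over all genes measured were 3.84% higher and 3.10% lower. The median log2 difference was 2.24 over 15 detected mitotic genes and 1.09 over 15 detected replication genes, against -0.02 over all detected genes. The reference genes had a median of 0.46, with 3 of 8 called higher (Actb, Gusb and Rpl13a). For Tpx2, Kif11 and the brightest probe of Rrm2 the fold is a lower bound, because the sham nerve did not detect them. The second Rrm2 probe was detected in both arrays and gave 2.03-fold (1.70 to 2.43). Nearest to the threshold were Mcm4 inside (2.06-fold) and Mcm3 outside it (1.72-fold). Both nerve comparisons used the same sham array, so a high or low value there enters both, and the direct comparison of the injured nerves does not use it.

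Set against each other, the injured nerves gave set medians that lay further apart. The same 2 injured nerve arrays enter here as above, so this is not a measurement separate from the comparisons with the sham nerve. In the day 5 nerve, 14 of 22 mitotic genes and 2 of 17 replication genes (Uhrf1 and Rrm2) were at least 2-fold higher than in the day 1 nerve, with Ccnd1 also higher and 0 genes lower. Of all genes measured, 2.04% were called higher and 2.92% lower. The median log2 difference was 2.14 for the mitotic and 0.50 for the replication genes (15 detected in each set), against -0.02 over all detected genes. All of the 15 detected mitotic genes except Bub1b lay at or above the highest replication gene, with Tpx2, the lowest of these 14, at the same rounded fold as Uhrf1 (2.21). Just inside and just outside the threshold were Rrm2 (2.14-fold) and Tyms (1.99-fold). Because the RNA came from whole tissue, more dividing cells and more RNA per dividing cell cannot be told apart here.

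**Figure D3:**
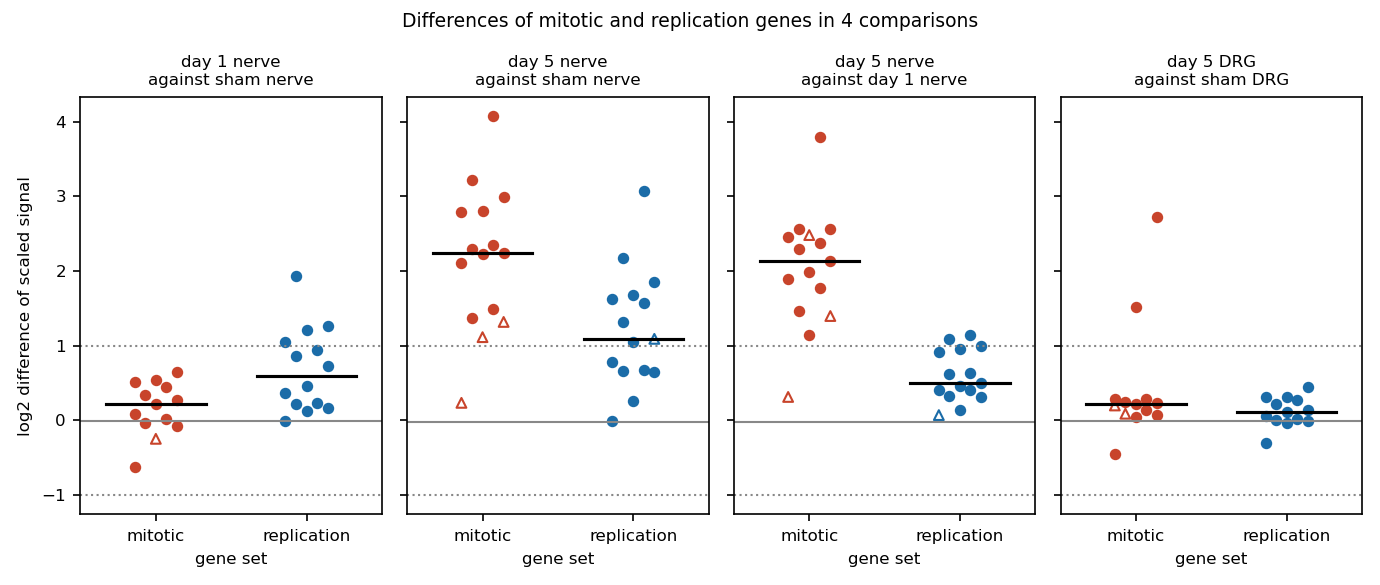
Log2 difference of scaled signal (y axis) of each detected mitotic (red, left) and replication gene (blue, right) in 4 comparisons, with black bars at the set medians, a gray line at the median of all detected genes, dotted lines at 2-fold, and open triangles for bounds (gene not detected in the dimmer array). On day 1 the replication bar (0.60) is above the mitotic bar (0.22), and in day 5 over day 1 nerve the mitotic bar (2.14) is above the replication bar (0.50).

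The mitotic genes Cdk1, Plk1, Aurka and Birc5 were under the 2-fold threshold on day 1 and past it on day 5, while no array detected the Cdk1 partners Ccna2 and Ccnb2. Cdk1, the cyclin-dependent kinase of mitotic entry, gave 140.3 ± 8.62 in the sham nerve, 221 ± 13.3 at day 1 and 1305 ± 75.5 at day 5. It was 9.30-fold higher on day 5 than in the sham nerve (7.88 to 11.0) and 5.91-fold higher than on day 1 (5.02 to 6.97). On the other arrays it lay between 122 and 143, so the day 5 nerve stood apart. Its other probes were not detected on any array, and with the mean of all its probes the log2 difference was 1.03 from the sham nerve and 0.87 from day 1, where the call was lost. Plk1, a kinase of centrosomes and kinetochores, was not detected at day 1, and had 139 ± 8.44 in the sham nerve and 655 ± 42.8 at day 5. That was 4.71-fold above the sham nerve (3.96 to 5.61) and at least 5.59-fold above day 1. Plk1 had 136 in the day 5 DRG and 129 in the sham DRG, and the cord did not detect it. Aurka, which builds the spindle poles, had 131 ± 8.12 in the sham nerve, 165 ± 8.07 at day 1 and 561 ± 28.1 at day 5, a difference of 4.30-fold from the sham nerve (3.68 to 5.03). Its signal was 248 in the day 5 DRG, 202 in the sham DRG and 183 in the cord. Birc5 (survivin, of the chromosomal passenger complex) had 152 ± 9.47, 216 ± 14.0 and 1058 ± 47.4 in sham, day 1 and day 5 nerve, and 206 in the day 5 DRG, 174 in the sham DRG and 176 in the cord. Its other probes gave the same order in the nerve, with 4.68-fold and at least 5.26-fold on day 5 against 6.98-fold for the first (6.01 to 8.12).

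Of 3 measured genes of chromosomes and centromeres, 2 were past 2-fold on day 5, and Cenpe was not detected. Cenpa, the histone H3 variant that marks centromeres, had 558 ± 37.5 in the sham nerve, 811 ± 36.4 at day 1 and 4452 ± 210.3 at day 5, with 366 in the day 5 DRG, 299 in the sham DRG and 256 in the cord. On day 5 it was 7.97-fold higher than in the sham nerve (6.79 to 9.37). Top2a, the topoisomerase that untangles chromosomes, had 143 ± 8.38, 166 ± 6.78 and 988 ± 48.9 in sham, day 1 and day 5 nerve. It was thus 1.16-fold above the sham nerve on day 1 (1.01 to 1.33) and 6.89-fold on day 5 (5.93 to 8.01), and on the remaining arrays it was at most 124.

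Of the genes of the spindle checkpoint and of the anaphase-promoting complex, which releases sister chromatids, Cdc20 and Mad2l1 were past 2-fold on day 5. Cdc20 had 195 ± 12.8 in the sham nerve, 207 ± 7.74 at day 1 and 914 ± 44.2 at day 5, with 146 in the day 5 DRG, 126 in the sham DRG and 137 in the cord. Its fold on day 5 was 4.68 (3.99 to 5.48). Mad2l1 had 394 ± 24.8, 398 ± 26.2 and 1105 ± 53.5 in the same order of nerves, so that sham and day 1 did not differ beyond their bead error (1.01-fold, 0.846 to 1.21). Bub1b was detected only in the day 5 nerve, near the floor (146 ± 10.2).

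Spindle motors and proteins of the midzone held the largest difference of any of the 41 genes. Prc1, which bundles the antiparallel microtubules of the central spindle, had 262 ± 13.8 in the sham nerve, 316 ± 18.7 at day 1 and 4403 ± 229.6 at day 5. It was 16.8-fold higher on day 5 than in the sham nerve (14.5 to 19.4) and 13.9-fold higher than on day 1 (11.9 to 16.3), and among 10406 genes detected at day 5 or day 1 it ranked 2 from the highest. Nusap1, a microtubule-bundling protein of the spindle, had 208 ± 11.5 in the sham nerve, 197 ± 14.4 at day 1 and 1018 ± 52.9 at day 5 (4.90-fold on day 5, 4.22 to 5.69), while its other probes were not detected on any array and their mean with the first was under the threshold (log2 difference 0.72). In the DRG it had 161 at day 5 and 146 in the sham array. Kif11, the motor that pushes spindle poles apart, and Tpx2, which activates Aurka on microtubules, were not detected in the sham nerve and had 309 ± 18.7 and 268 ± 17.2 at day 5, at least 2.49-fold and at least 2.17-fold higher. Kif22, a chromosome-bound motor, had 141 ± 12.0 in the sham nerve, 192 ± 11.7 at day 1 and 717 ± 44.8 at day 5, 5.08-fold above the sham nerve on day 5 (4.13 to 6.24). Anln (anillin, the scaffold of the contractile ring) was the only member detected in both arrays with a lower signal on day 1 whose interval excluded 1, with 631 ± 33.6 at day 1 against 969 ± 85.9 in the sham nerve (0.652-fold, 0.532 to 0.798), which is not past 2-fold. At day 5 it reached 2509 ± 139, or 2.59-fold above the sham nerve (2.11 to 3.18).

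In all 13 replication genes detected in every nerve array, of 17 measured, the day 1 signal lay between that of the sham and of the day 5 nerve. The same order held in 9 of 11 such mitotic genes, so it was not particular to replication genes, and its share over all genes was not computed. These are values of the brightest probes. Among the 13 genes, other Tyms probes detected in every nerve array did not keep the order. They had 150, 121 and 130, and 140, 145 and 141, in sham, day 1 and day 5 nerve. The second probe of Rrm2, which was not among the 13, did not follow the order either (125 in the sham nerve, 119.7 at day 1, 254 at day 5). Uhrf1, which recognizes hemimethylated DNA behind the replication fork, had 276 ± 16.3 in the sham nerve, 1054 ± 48.6 at day 1 and 2325 ± 158 at day 5. On day 5 it was 8.44-fold above the sham nerve (7.07 to 10.1), the largest difference of a replication gene on either day, and 2.21-fold above day 1 (1.88 to 2.59). It had 212 in the day 5 DRG, 170.3 in the sham DRG and 162 in the cord. A second Uhrf1 probe was not detected on any array, and averaging both probes took the day 1 difference to 0.93 on the log2 scale, under the threshold.

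The subunits Mcm2 to Mcm6 of the MCM helicase, which unwinds DNA at the fork, had day 1 signals between those of the sham and day 5 nerve. Mcm5 had 330.1 ± 18.1, 789.7 ± 31.8 and 1491 ± 57.3 in sham, day 1 and day 5 nerve, and 279.6 in the day 5 DRG, 276 in the sham DRG and 236 in the cord. Mcm6 had 392 ± 21.9, 809 ± 38.3 and 1257 ± 62.6, and 309 in the day 5 DRG, 227 in the sham DRG and 231 in the cord. On day 5 these genes were 4.52-fold (3.96 to 5.15) and 3.21-fold (2.77 to 3.72) above the sham nerve. Other Mcm6 probes gave 2.65-fold and 3.46-fold on day 5, but the day 1 call of Mcm6 was lost with quantile normalization (log2 difference 0.94), with the processed values (0.96) and with the mean of its probes (0.67). Mcm2 had 186 ± 9.36 in the sham nerve, 359 ± 24.0 at day 1 and 552 ± 26.7 at day 5, and Mcm4 had 1522 ± 83.9, 2528 ± 118 and 3141 ± 113. In the day 5 DRG, the sham DRG and the cord, Mcm2 had 168, 173 and 155, and Mcm4 had 980.5, 1210.2 and 1141. Mcm3 was 1.37-fold above the sham nerve on day 1 (1.09 to 1.73) and 1.72-fold on day 5 (1.41 to 2.09), and Mcm7 was detected only in the day 5 nerve, at 123 ± 6.71.

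The licensing factor Cdt1, which loads the helicase, had 209.9 ± 14.3 in the sham nerve, 488 ± 26.4 at day 1 and 648 ± 36.7 at day 5 (3.09-fold on day 5, 2.60 to 3.67). It had 172 in the day 5 DRG, 142 in the sham DRG and 209 in the cord. Its partner Cdc6 and the helicase cofactor Cdc45 were under the threshold in every comparison (log2 differences of 0.68 and 0.67 on day 5). So were Pcna, the sliding clamp, with 202 ± 16.4 at day 5 against 169 ± 13.6 in the sham nerve, where the interval of the fold included 1, and Rfc4 of the clamp loader (1.56-fold, 1.33 to 1.84). All 3 genes of nucleotide synthesis passed on day 5 and none on day 1. Tyms, thymidylate synthase, had 391 ± 22.5 in the sham nerve, 712 ± 32.6 at day 1 and 1419.7 ± 81.5 at day 5. Rrm1, the large subunit of ribonucleotide reductase, had 314 ± 21.3, 403 ± 23.1 and 783 ± 39.9, and the brightest probe of Rrm2, its small subunit, had 124 ± 11.8 at day 1 and 264 ± 18.1 at day 5 and was not detected in the sham nerve. The second Rrm2 probe had 125 ± 9.06 in the sham nerve, 119.7 ± 7.28 at day 1 and 254 ± 13.9 at day 5.

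Cyclin D1 (Ccnd1), which brings cells through G1, was past 2-fold against the sham nerve on day 5 and not on day 1. Its signal was 3048 ± 155 in the sham nerve, 3807 ± 128 at day 1 and 10043 ± 404 at day 5, 3.29-fold above the sham nerve on day 5 (2.90 to 3.74) and 1.25-fold on day 1 (1.11 to 1.41). Its other probes gave 2.82-fold and 2.88-fold on day 5. Cyclin E1 (Ccne1) stayed near the floor, at 124 on day 1 and 136 on day 5, and was not detected in the sham nerve.

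**Figure D4:**
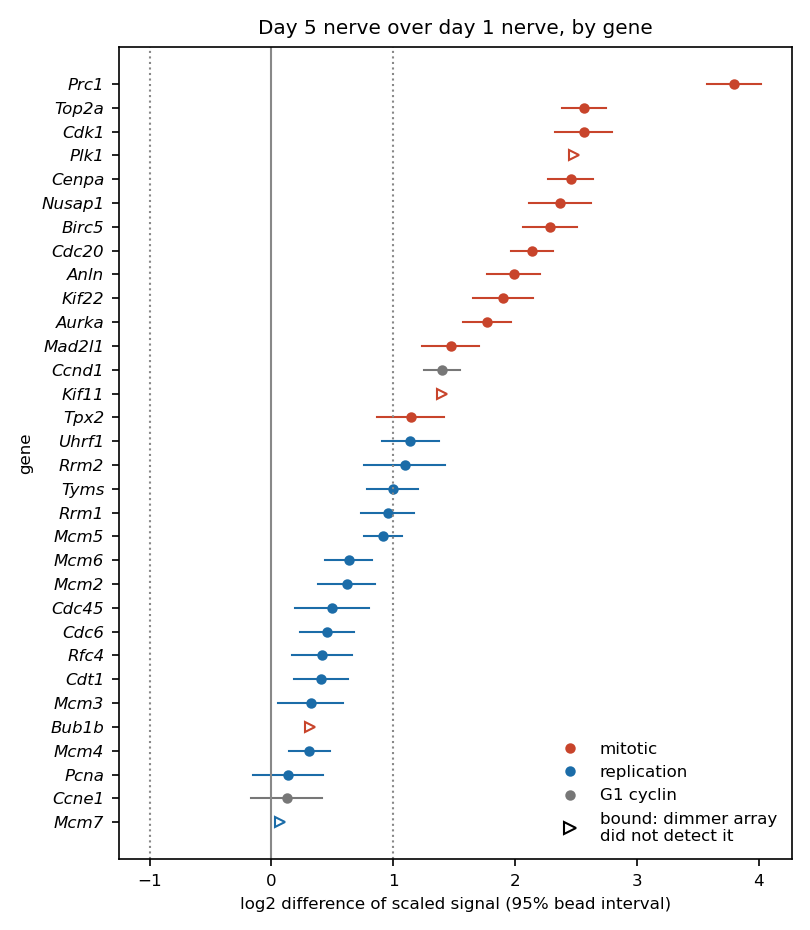
Log2 difference of scaled signal between the day 5 and the day 1 nerve (x axis) for each detected gene, with 95% bead intervals and open triangles for bounds; dotted lines mark 2-fold. Mitotic genes (red) fill the top of the plot from Prc1 (13.9-fold) to Tpx2 (2.21-fold), interrupted by Ccnd1 (gray), and replication genes (blue) the rest, apart from Bub1b and Ccne1.

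The timing can be put as the part of the day 5 increase that was already present on day 1, a measure chosen after the values were seen, in which a constant background cancels. It was taken for the genes called on day 5 and detected in all 3 nerve arrays. The median was 2.73% over 11 mitotic genes and 43.4% over 8 replication genes. The same part was not computed over all genes called on day 5, so no background value stands beside these medians. Mitotic genes ran from -21.9 ± 7.41% (SE) for Anln and -1.37 ± 2.28% for Nusap1 to 7.95 ± 2.61% for Aurka and 8.87 ± 2.86% for Kif22, with Cdk1 at 6.90 ± 1.41% and Prc1 at 1.31 ± 0.563%. Replication genes ran from 19.1 ± 6.36% for Rrm1 and 31.2 ± 4.29% for Tyms to 62.1 ± 8.73% for Mcm4 and 63.5 ± 8.12% for Cdt1, with Uhrf1 at 38.0 ± 3.80%. Ccnd1 lay between, at 10.9 ± 2.77%. The ranges of both sets did not overlap for the genes taken, although the bead intervals of Kif22 (3.26 to 14.5%) and Rrm1 (6.61 to 31.6%) did. Plk1, Kif11, Tpx2 and Rrm2, also called on day 5, were left out because a nerve array did not detect their brightest probe. The second Rrm2 probe was detected in all 3 nerve arrays, with 125 in the sham nerve, 119.7 at day 1 and 254 at day 5. By that probe the part for Rrm2 was negative, below the replication range given here. It lay within the mitotic range, so with that probe the ranges of both sets overlap. For Tyms, other probes detected in all 3 nerve arrays were not called on day 5, so its 31.2% rests on its brightest probe. The sham array enters every one of these percentages.

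In the DRG, 2 of 22 mitotic genes, Kif22 and Prc1, and 0 of 17 replication genes were at least 2-fold higher at day 5 than in the sham DRG, and 0 of the 41 were lower. Over all genes measured, 0.524% were called higher and 0.199% lower. Kif22 had 2391 ± 73.3 in the day 5 DRG against 360.4 ± 19.9 in the sham DRG, 6.63-fold higher (5.86 to 7.51), and its signal there was above that of any nerve array (141 to 717) and of the cord (449). Prc1 had 1098 ± 53.6 in the day 5 DRG against 384 ± 21.0 in the sham DRG, 2.86-fold higher (2.48 to 3.30), with 256 in the cord. Kif22 ranked 11 and Prc1 ranked 34 from the highest of 10191 detected genes. The next member, Mcm6, was at 1.36-fold (1.11 to 1.68), and the remaining mitotic genes lay between 0.734-fold (Anln) and 1.23-fold (Aurka), and none of these passed 2-fold. The median log2 difference was 0.21 over 13 mitotic and 0.11 over 13 replication genes, against -0.00 over all detected genes. In the same comparison Gadd45g, Cdkn1a and Gadd45a, growth-arrest and checkpoint genes, were at least 2-fold higher (2.52-, 2.24- and 5.04-fold), out of 21 measured genes that restrain the cell cycle.

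**Figure D5:**
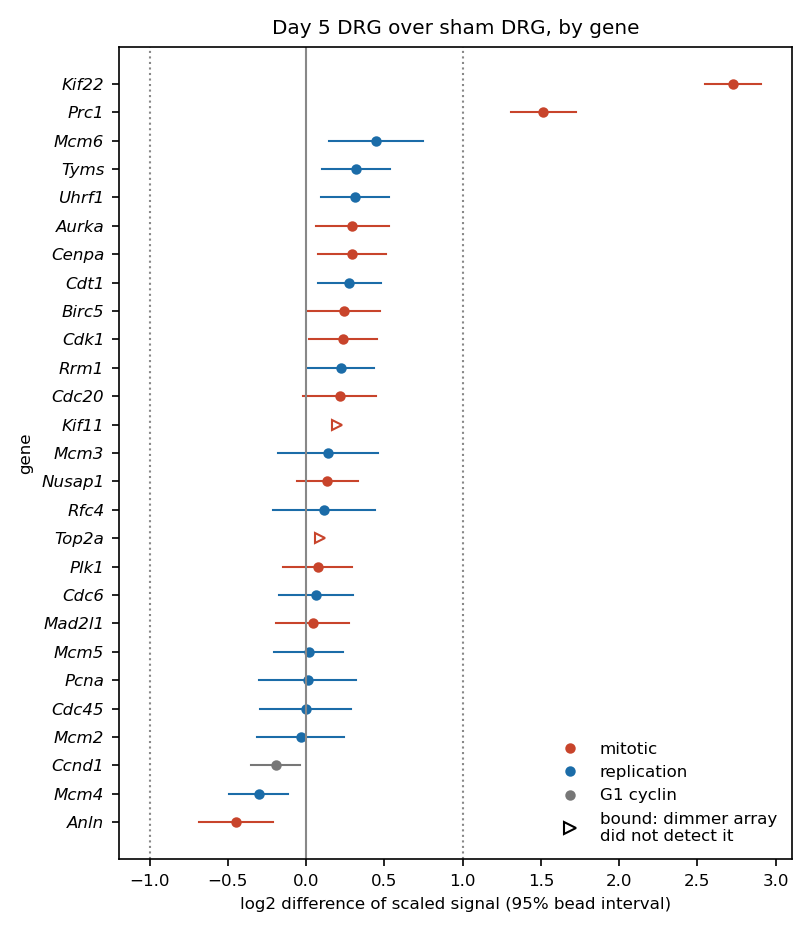
Log2 difference of scaled signal between the day 5 and the sham DRG (x axis) for each detected gene, with 95% bead intervals, open triangles for bounds and dotted lines at 2-fold. Kif22 (6.63-fold) and Prc1 (2.86-fold) stand to the right of the 2-fold line, and all other genes lie between the dotted lines.

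In the spinal cord at day 5, which had no control array, 10 of 22 mitotic and 13 of 17 replication genes were detected. Of the genes detected in the cord or the sham DRG, 11 of 12 mitotic and 13 of 13 replication genes were within 2-fold between them. Several were near the floor in both, such as Cdk1 (122 and 122), Cdc45 (132 and 120) and Cdc6 (134 and 121). For such genes a difference under 2-fold says little about the tissues, and the share over all genes was not computed. The mitotic gene past 2-fold was Anln, at 3274 ± 197 in the cord, against 491 ± 31.6 in the day 5 DRG and 670.0 ± 35.1 in the sham DRG. In the central nervous system anillin is also known as part of a septin scaffold in myelin.

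Of the 14 genes with more than 1 probe, 9 had probes that no array detected (14 probes, of Cdk1, Nusap1, Anln, Mcm4, Mcm6, Tyms, Uhrf1, Cdc6 and Cdc45). Among pairs with a detected second probe, those of Tyms, Cdc20 and Anln disagreed. In the day 5 nerve the difference of a second probe was 2-fold or more away from the first in 5 of 15 pairs, against 1 of 13 on day 1 and 0 of 11 in the DRG. For Tyms, 3 other detected probes gave log2 differences of -0.21, 0.01 and 0.71 on day 5, against 1.86 for the brightest. A dim second probe of Cdc20 gave 0.20 against 2.23, while its other probes gave 1.77 and 1.39. A second probe of Anln gave 0.17 against 1.37, and it had 182 ± 12.0 in the cord, where the first probe was also at its highest, and was not detected in either DRG array. The brightest Tyms probe had 240.3 in the day 5 DRG, 192 in the sham DRG and 204 in the cord.

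Other genes of the same processes, not among the 48, were measured from lists written with earlier results of these data known. Of 50 other mitotic genes, 0 passed 2-fold upward on day 1, 20 on day 5 and 18 in the day 5 against the day 1 nerve, with median log2 differences of 0.16, 0.96 and 0.94. The brightest on day 5 were Pbk, a mitotic kinase (12.7-fold), the condensin subunit Ncaph (4.77-fold), the kinetochore gene Spc25 (4.13-fold) and Incenp of the passenger complex (3.45-fold). Of 35 other replication genes, 3 were higher on day 1, 10 on day 5 and 3 in the direct comparison, with medians of 0.32, 0.74 and 0.36. On day 1 these were Fen1, the flap endonuclease of lagging-strand synthesis (2.40-fold), Timeless of the fork protection complex (2.04-fold) and Chaf1b, a subunit of the chromatin assembly factor (at least 2.06-fold). The brightest on day 5 were Fen1 (2.97-fold), thymidine kinase Tk1 (at least 9.15-fold), DNA ligase Lig1 (2.37-fold) and the maintenance methyltransferase Dnmt1 (2.02-fold). In the DRG, 0 of both lists were higher. Over all genes measured, 4.03% were called higher on day 1, 3.84% on day 5, 2.04% in the direct comparison and 0.524% in the DRG. Beside that share, the day 1 counts of 0 of 50 and 3 of 35 rest on few genes.

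Upstream regulators were mixed. Shares called higher and lower over all genes were 4.03% and 2.21% on day 1, and 3.84% and 3.10% on day 5. In the day 5 against the day 1 nerve they were 2.04% and 2.92%. Of 14 other G1 cyclins, CDKs and E2F factors, 0 were past 2-fold on day 1, and Cdk2 (2.20-fold) and E2f1 (3.70-fold) were higher on day 5. In the day 5 against the day 1 nerve E2f1 was higher (2.79-fold), and Ccnd2 was lower, with 628 at day 5 against 1413 at day 1. Of 21 genes that restrain the cycle, Btg1, Gadd45g, Gadd45a and Gadd45b were higher on day 1, and the CDK inhibitors Cdkn1c (1509 at day 1, 5856 in the sham nerve) and Cdkn2c (219.0 at day 1, 603 in the sham nerve) were lower. On day 5 Gadd45a and the pocket protein Rbl1 were higher, and Cdkn1a (p21) was lower, with 2478 in the day 5 nerve against 7393 in the sham nerve.

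Markers of cell types also differed between these arrays, in different directions, and their part in the result was not tested. The summed signal of 7 measured macrophage markers was 7789 in the sham nerve, 22536 at day 1 and 54944 at day 5, with 5 of 7 higher on day 1 and 6 of 7 on day 5. The 9 measured neutrophil markers summed to 1159, 28375 and 3548 in the same order of nerves. Of these, 4 were called higher on day 1 (S100a8, S100a9, Csf3r and Cxcr2) and 3 on day 5. Mpo, Elane, Camp and Ngp were not detected in the day 1 nerve. The 7 fibroblast markers summed to 79463, 45161 and 66044, with 5 of 7 lower on day 1 and 0 called on day 5. The 5 Schwann cell markers summed to 100960 in the sham nerve, 95138 at day 1 and 58843 at day 5, but they did not move together. Against the sham nerve 0 of them were called on day 1, while on day 5 Ngfr was higher and Egr2 and S100b were lower. Ngfr was also higher, and Egr2 lower, in the day 5 than in the day 1 nerve. Of the 9 spinal cord markers, 7 were detected in the day 1 nerve (sum 3102) against 2 in the sham nerve (1131), and 2 in the day 5 DRG (1087) against 7 in the sham DRG (3823). Macrophage markers in the DRG summed to 4781 at day 5 and 2578 in the sham array, with Lyz2 higher.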

How the data were processed

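Total RNA of nerve, DRG and spinal cord was hybridised to Illumina MouseRef-8 v2.0 arrays, 1 pool of 6 animals each. The authors deposited, without normalization, an intensity per probe (the bead mean, not scaled and not background subtracted), its bead standard error, the count of beads (median 38 to 40 per probe), and a detection p-value against negative controls. The labels name Agilent Feature Extraction 10.5. A deposited table of processed intensity values shares its quantiles between arrays, although the methods describe normalization to the median, and it served as an alternative. The day 5 nerve array carries the code of day 1 at the end of its title and was taken as day 5 from its source name.

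Intensities were scaled to a common median (Python 3.11.15, pandas 2.3.3, numpy 2.4.6). Undetected signals below the floor of an array, the lowest signal with a detection p under 0.05 (117 to 124), were set to it. A gene's value came from the probe with the highest mean over the 6 arrays. A fold is a lower bound if the gene was not detected in its dimmer array. Of 25697 probes, 23978 had 1 gene symbol. Bead intervals used z = 1.96. The calling step was checked on simulated arrays with known differences. Alternatives were no scaling, quantile normalization, neqc (limma 3.58.1, R 4.3.3), detection p under 0.01, no floor, the mean of all probes of a gene, the processed values, thresholds of 1.5-fold and 3-fold, and Ccna2, Top2a and Ccne1 counted with the replication genes.

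The members, their division into mitotic and replication genes and all lists were chosen with earlier results of these data known. Named with values in every array were the 8 members with the largest fold per comparison, those called in the DRG and those with probes that disagreed, and of other lists the 4 brightest called genes in each direction. No replicates or pairs allowed a test between conditions, and 0 sample columns were left out.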

Additional observations from a re-analysis of the deposited data

Results flagged for a closer look

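Anln was brightest in the spinal cord, an array without a control that enters no comparison. Its signal there was 3274, at least 2-fold above both control arrays (969 in the sham nerve and 670.0 in the sham DRG). A second Anln probe was also at its highest in the cord, at 182, and its remaining probe was not detected on any array. The difference between tissues was not tested, since each tissue had 1 array.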

How the results depend on the processing

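Of 258 values of 30 summary results under alternative settings, 225 stayed within the tolerance, 33 moved and 0 reversed, and of 329 values of 47 single-gene differences, 314 kept their call, 15 lost it and 0 reversed. For a median log2 difference the tolerance was the median half-width of the bead intervals (0.222 to 0.236). Counts, and medians smaller than the tolerance, could not be labelled reversed, and a small change of a count was labelled as the same. Only single-gene calls of the main setting were followed, so calls gained elsewhere were not counted. The lost calls were, with the mean of all probes, Mcm6 and Uhrf1 on day 1, Mcm4, Tyms, Nusap1 and Anln on day 5, and Uhrf1, Cdk1, Nusap1 and Anln in day 5 against day 1 nerve; Mcm6 on day 1 with quantile normalization and the processed values; Rrm2 and Tpx2 on day 5 at a detection p under 0.01; and Rrm2 in day 5 against day 1 nerve with the processed values. Averaging all probes of a gene, which mixes in probes detected nowhere, gave on day 1 a count of 2 higher replication genes (2 of all members), a replication median of 0.28 and a mitotic minus replication median of -0.12. On day 5 it gave medians of 1.49 (mitotic) and 0.78 (replication) and a difference of 0.71, and in day 5 against day 1 nerve a mitotic median of 1.47, a difference of 1.11 and 1 higher replication gene. With neqc, which subtracts background, 1 mitotic gene was higher on day 1, the day 5 medians were 3.24 (mitotic) and 1.61 (replication) with a difference of 1.63, the day 5 against day 1 medians were 2.74 and 0.80 with a difference of 1.94 and 5 higher replication genes, and the DRG mitotic median was 0.48. In day 5 against day 1 nerve, 5 replication genes were higher with quantile normalization and 4 with the processed values. At 1.5-fold, day 1 gave 1 mitotic gene higher, 7 replication genes and 8 members higher and 1 lower, and day 5 against day 1 gave 7 replication genes. At 3-fold the counts were 1 replication gene and 1 member on day 1, 5 replication genes on day 5, 0 replication genes and 11 members in day 5 against day 1, and 1 mitotic gene and 1 member in the DRG. The cause of these moves was not tested beyond the construction of each alternative. The part of the day 5 increase present on day 1 ranged over 5 settings added after the data were seen from 2.11 to 5.49% (mitotic) and from 35.0 to 47.6% (replication). Over all genes on day 1, 669 were higher and 367 lower, with 842 and 264 without scaling, where the median of all genes moved to 0.12, and 924 and 895 with neqc. No paired analysis was possible because each condition was 1 array, and for the same reason no array could be left out. Signals near the floor of 117 to 124, such as those of Mcm7, Bub1b and Ccne1, limit what the arrays can show.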
